A study of Mus musculus with 31 samples.

Results

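Of the 73539 regions that carried acetylated histone H3 lysine 27 (H3K27ac) in Nkx2-1-positive mouse lung adenocarcinomas, 9324 no longer carried it in Nkx2-1-deleted tumors but still had H3K4me1 there. These regions, called lost H3K4me1-marked islands here, were chosen by a rule on 4 lists. An island, a stretch of enriched reads called by the authors, had to lie on chromosomes 1 to 19, span less than 20000 bp and share no base with a deleted-tumor H3K27ac island. It also had to overlap a deleted-tumor H3K4me1 island and no deleted-tumor H3K27me3 island, each by at least 1 bp. The rule was applied to 70686 autosomal islands under the width limit. Of these, 23146 (32.7%) were lost, meaning without deleted-tumor H3K27ac, and 13.2% met the whole rule. Lost H3K4me1-marked islands were 40.3% of all lost islands (95% interval 39.7 to 40.9). The other lost islands were 10169 with neither H3K4me1 nor H3K27me3 in deleted tumors and 3653 with H3K27me3.

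The study compared 2 kinds of lung adenocarcinoma from mice of mixed 129/B6 strain aged 4 to 7 months: Nkx2-1-positive tumors, the controls, and tumors with Nkx2-1 deleted. Nkx2-1 was immunoprecipitated in positive tumors, and Foxa1/2, H3K27ac, H3K4me1, H3K4me3 and H3K27me3 in both. Tumors arose after adenovirus or lentivirus was given into the trachea, and the protocols include tamoxifen injections at 56 or 112 µg per g, but the labels do not tie virus, tamoxifen or further alleles to a group. Each of 11 groups has 2 libraries, but its deposited files hold 1 pooled list, so no difference below has a replicate check and no p-value is given. Intervals are 95% Wilson intervals over islands or peaks and cover counting error only, and neighbouring islands are not independent. The Nkx2-1 libraries and the positive-tumor Foxa1/2 libraries came from male mice and the deleted-tumor Foxa1/2 libraries from female mice, so for Foxa1/2 sex and tumor type cannot be told apart. Every histone group held 1 male and 1 female. Reads inside H3K27ac islands came to 45.7 M in positive and 31.2 M in deleted tumors, and no other measure of depth was used here. The tumors are bulk tissue, in which fewer cells with a mark and less of the mark per cell cannot be told apart. The lists carry no gene names, and the tissue label was not checked against marker genes.

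H3K4me1 is laid down at enhancers whether or not they are active, while H3K27ac is placed by the acetyltransferases p300 and CBP at active enhancers and promoters. An enhancer with H3K4me1 but without H3K27ac or the Polycomb mark H3K27me3 is commonly called primed. Nkx2-1 is a homeodomain factor that directs lung and alveolar type II cell identity, and Foxa1 and Foxa2 are pioneer factors that open chromatin in endodermal tissues and act with Nkx2-1 at lung genes.

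The lost H3K4me1-marked islands were small and weak within their own list, as values that the choice of members fixes in part. Their median width was 1600 bp (quartiles 1200 and 2400, range 200 to 17200). The median read count was 115 (quartiles 78 and 191, range 28 to 2701), against 373 in kept islands, those that overlap deleted-tumor H3K27ac. In reads per kb, the medians were 72.5 and 110. Only 17.6% of members were denser than the median kept island of the same width. By read count, 1849 members (19.8%) stood in the upper 50% of the positive-tumor H3K27ac list and 37 (0.397%) in the upper 10%. The part of the lower read total of the deleted-tumor list in the loss of weak islands was not tested. Shares below were set against kept islands of equal width or of equal read count where this is stated. The other comparisons with kept islands are unweighted, and kept islands were wider. The closest comparison class was the 38189 kept islands that also carried H3K4me1 and no H3K27me3 in deleted tumors, called kept H3K4me1-marked islands.

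Near the thresholds of the rule, values lay as follows. The widest member spanned 17200 bp and the narrowest autosomal island over the width limit 20000 bp, and of 1275 islands at or over the limit 0 were lost. A deleted-tumor H3K27ac island directly abutted 54 members, with a gap of 0 bp, while 87 kept H3K4me1-marked islands were kept by an overlap of 200 bp. H3K4me1 in deleted tumors covered as little as 200 bp of a member, and 259 members were covered by less than 25%. Just outside, 1662 of the lost islands with neither mark (16.3%) lay within 1000 bp of a deleted-tumor H3K4me1 island.

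**Figure D1:**
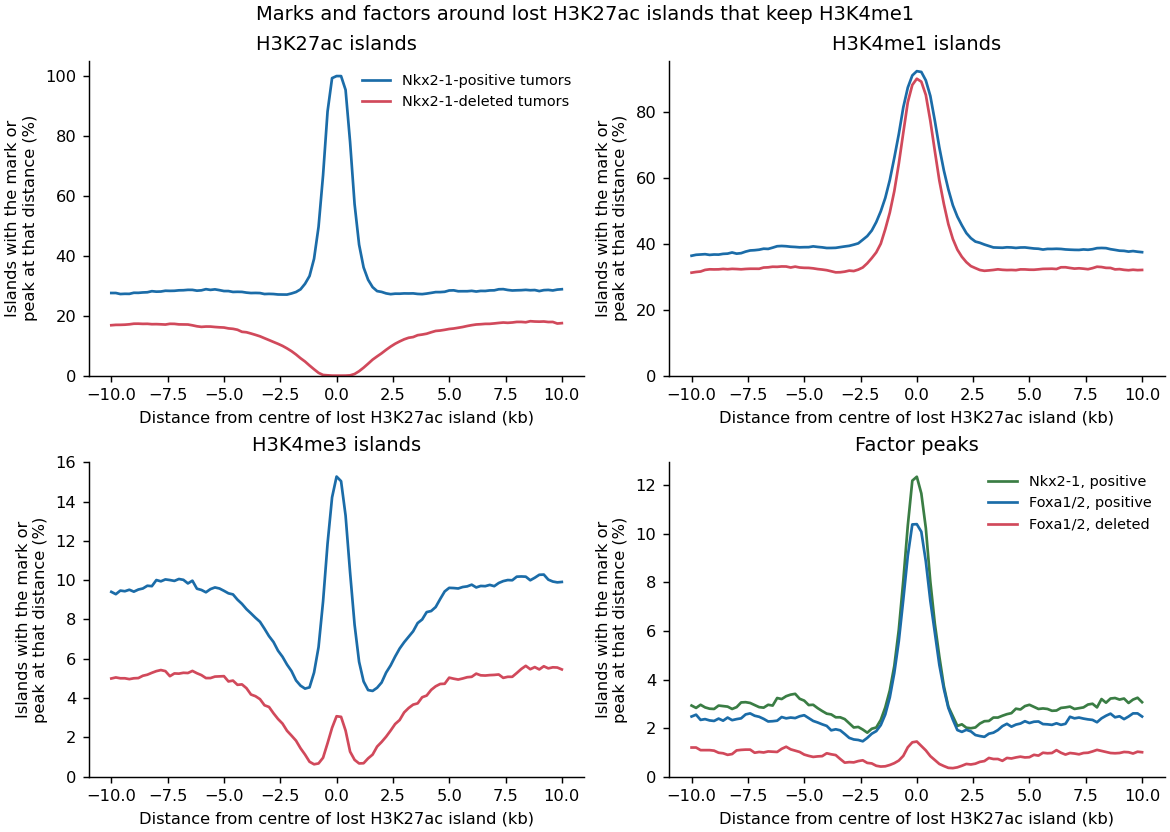
Share of the 9324 lost H3K4me1-marked islands covered by an island or peak at each distance from the island centre (x axis, kb from −10 to 10; y axis, percent), for each list in positive and deleted tumors. At the centre, 92.4% were covered by H3K4me1 in positive and 90.1% in deleted tumors, while H3K4me3 covered 15.3% and 3.08%. The H3K27ac curves and the deleted-tumor H3K4me1 curve are partly fixed by the rule.

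Nkx2-1 bound 2161 of the 9324 lost H3K4me1-marked islands in positive tumors, a share of 23.2% (22.3 to 24.0). All 70686 autosomal islands under the width limit held it in 25.8% (25.4 to 26.1), unweighted, so the members were not above the whole list. The members' share was higher than in both other classes of lost islands. Lost islands with neither H3K4me1 nor H3K27me3 held an Nkx2-1 peak in 8.05% (7.54 to 8.60), and those with H3K27me3 in 5.12% (4.45 to 5.88). Weighted to the widths of the members they could be matched to, these classes gave 11.02% and 6.16%, still below the members.

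Against kept islands the order depended on size. Kept H3K4me1-marked islands held Nkx2-1 in 37.5% (37.1 to 38.0), above the lost ones, but they were wider, with a median of 3400 bp. Weighted to the widths of the members, they gave 19.8%, and weighted to the members' read counts 12.8%, both below the 23.2% of the members. In ranges of width, the excess was beyond counting error in the wider islands only. Among islands of 2200 to 4000 bp, Nkx2-1 was at 32.9% of lost (31.0 to 34.8) and 30.1% of kept (29.3 to 31.0) H3K4me1-marked islands, with intervals that barely missed each other. Among those of 4200 bp and more it was at 69.6% (66.4 to 72.7) and 59.8% (59.0 to 60.6). In the 3 narrower ranges the intervals overlapped, for example 10.8% (9.51 to 12.2) against 9.72% (8.64 to 10.9) at 1000 to 1200 bp.

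In groups of equal read count the members' share was higher throughout, but these groups were not matched for width. Members were less dense, with a median of 72.5 reads per kb against 117.5 in kept H3K4me1-marked islands. At equal read count a less dense island is wider, and wider islands overlap more peaks. The part of width in this excess was not tested. The list was divided into 10 groups of equal size by read count, and in all 10 the share of members with Nkx2-1 exceeded that of kept H3K4me1-marked islands, with intervals that did not overlap in 9. The exception was the weakest group, of 28 to 70 reads, with 7.90% of members (6.68 to 9.31) and 6.25% of kept H3K4me1-marked islands (5.09 to 7.66). In the strongest, of 1287 reads and more, it was 98.1% of 52 members (89.9 to 99.7) and 79.98% of kept ones (78.98 to 80.9). With width weighting, the members' share was above that of kept H3K4me1-marked islands on 18 of 19 chromosomes.

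**Figure D2:**
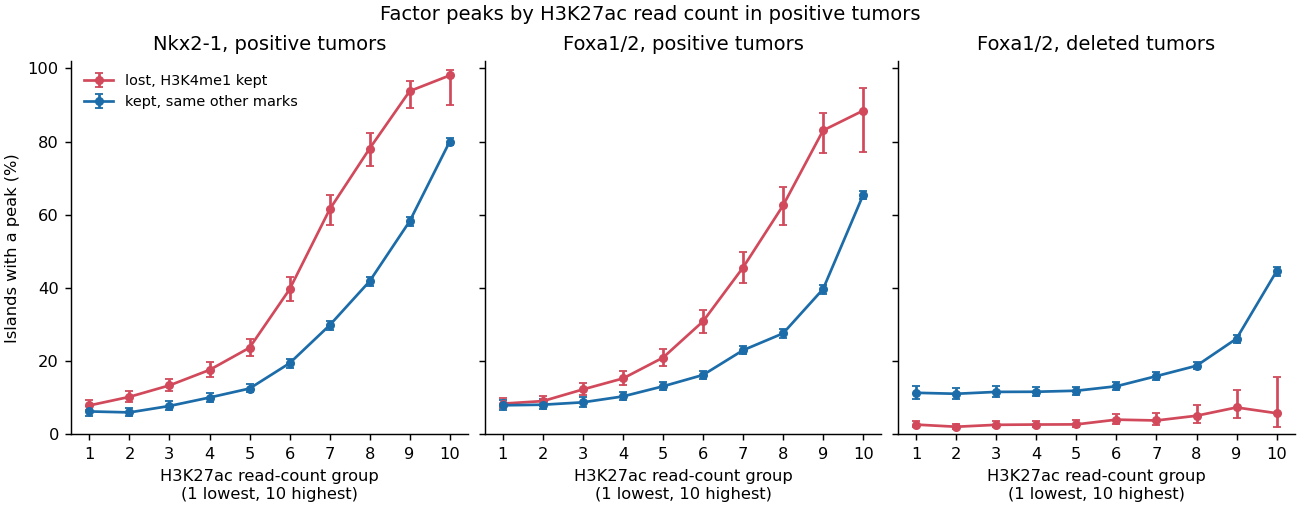
Share of islands with a peak of Nkx2-1, of Foxa1/2 in positive tumors or of Foxa1/2 in deleted tumors (y axes, percent) in 10 groups of H3K27ac read count (x axis, weakest to strongest), for lost and for kept H3K4me1-marked islands, with 95% Wilson intervals. Nkx2-1 and positive-tumor Foxa1/2 lie higher in the lost islands in all 10 groups, with intervals apart in 9 and 8. Deleted-tumor Foxa1/2 lies lower in all 10. The groups are matched for read count and not for width.

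Strong members nearly all carried Nkx2-1. The 100 with the most H3K27ac reads, 1041 to 2701, included 99 with an Nkx2-1 peak, against 71.5% (70.4 to 72.6) of kept H3K4me1-marked islands in the same range of reads. Of the 1000 strongest, with 328 reads or more, 74.6% had Nkx2-1 (71.8 to 77.2), against 51.8% (51.1 to 52.5). Both comparisons were matched for the range of reads and not for width. Most bound members held 1 Nkx2-1 peak (2000 islands), while 149 held 2 and 12 held 3 or more. The 2268 autosomal Nkx2-1 peaks that overlapped a member had a median score of 174, close to the 162 of all 29265 autosomal Nkx2-1 peaks. The score is the authors' own value per peak and is used only within its list.

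Foxa1/2 was bound at nearly as many members as Nkx2-1 in positive tumors and at few in deleted tumors. In positive tumors 1835 members had a peak, 19.7% (18.9 to 20.5), and in deleted tumors 273, 2.93% (2.60 to 3.29). Kept H3K4me1-marked islands had a peak in 29.1% (28.6 to 29.5) and 21.2% (20.8 to 21.6), and all autosomal islands in 19.9% and 12.5%. Unweighted, the members' positive-tumor share was thus below that of kept H3K4me1-marked islands and near that of the whole list. Weighted to the members' widths, kept H3K4me1-marked islands gave 14.7% in positive and 13.0% in deleted tumors. With that weighting the members stood above them for positive-tumor Foxa1/2 and below them for deleted-tumor Foxa1/2, each on 19 of 19 chromosomes. Weighting to read counts gave 12.2% and 12.5%. In all 10 groups of read count, again not matched for width, the members were higher for positive-tumor Foxa1/2. The intervals were apart in 8, the exceptions being the 2 weakest groups. For deleted-tumor Foxa1/2 they were lower in all 10 with intervals apart.

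Foxa1/2 and Nkx2-1 peaks met in the same members less often than in kept islands with Foxa1/2. Both were at 1234 members (13.2%), Nkx2-1 alone at 927, positive-tumor Foxa1/2 alone at 601 and neither at 6562 (70.4%). Of the members with positive-tumor Foxa1/2, 67.2% (65.1 to 69.4) also had Nkx2-1, against 73.0% (72.2 to 73.8) of kept H3K4me1-marked islands with positive-tumor Foxa1/2. Where a member held both summits, the nearest pair lay a median of 57 bp apart (quartiles 26 and 116, 1021 members). The summits sat towards the middle of the islands, with a median of 394.5 bp from an Nkx2-1 summit to the island centre.

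Loss of the Foxa1/2 peak itself was counted peak by peak. Members held 1882 positive-tumor Foxa1/2 peaks, of which 1670 had no overlapping peak in deleted tumors, 88.7% (87.2 to 90.1). Over all 22611 autosomal Foxa1/2 peaks of positive tumors this share was 57.9%, and over those in kept H3K4me1-marked islands 51.5% (50.7 to 52.4). Peaks in members were therefore missing from deleted tumors more often than the list as a whole.

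The difference held for weak and strong Foxa1/2 peaks. The list was cut into 5 groups of equal size by score, and peaks were split by overlap with an Nkx2-1 peak. Among the strongest Foxa1/2 peaks with Nkx2-1, 77.1% of those in members were lost (71.8 to 81.7), against 27.9% (26.2 to 29.7) in kept H3K4me1-marked islands. Among the weakest with Nkx2-1, 99.5% and 86.0% were lost. Without Nkx2-1, the strongest were lost in 14 of 42 cases in members, 33.3% (21.0 to 48.4), and in 5.83% (3.98 to 8.46) in kept islands.

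**Figure D3:**
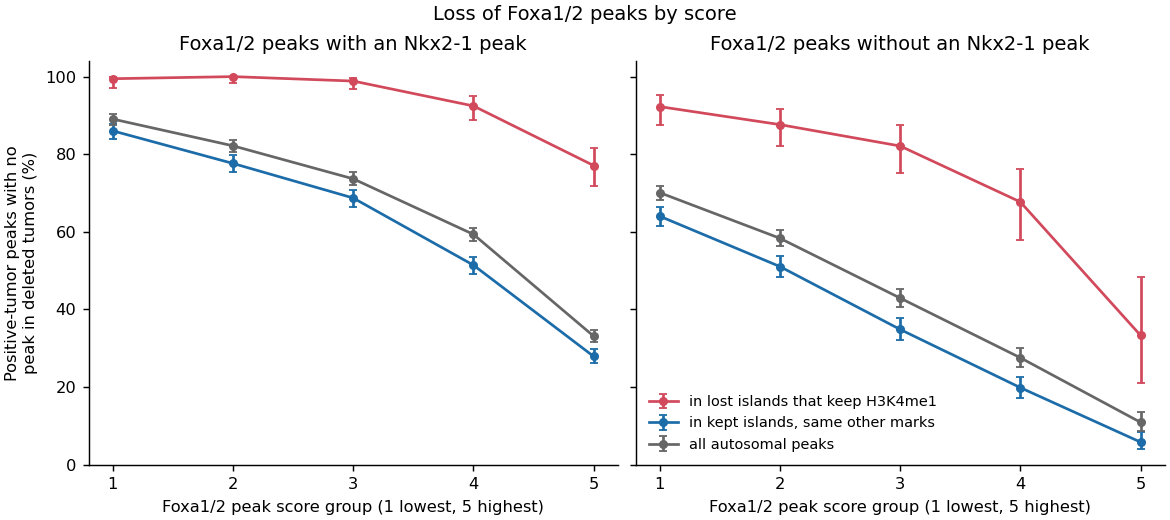
Share of positive-tumor Foxa1/2 peaks without a deleted-tumor peak (y axis, percent, with 95% Wilson intervals) in 5 groups of peak score (x axis, weakest to strongest), for peaks with and without an overlapping Nkx2-1 peak. Peaks inside lost H3K4me1-marked islands lie above those inside kept H3K4me1-marked islands in the strongest group, at 77.1% against 27.9% with Nkx2-1.

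Foxa1/2 stayed less often where Nkx2-1 had been bound, in members as in kept islands. Of the 1234 members with both factors in positive tumors, 103 still had Foxa1/2 in deleted tumors, 8.35% (6.93 to 10.0). Of the 601 with Foxa1/2 and no Nkx2-1 it was 119, 19.8% (16.8 to 23.2). In kept H3K4me1-marked islands the same shares were 54.0% (52.9 to 55.1) with Nkx2-1 and 63.6% (61.9 to 65.3) without. Where a Foxa1/2 summit was present in both tumor types, the summits were a median of 18.5 bp apart (176 members). New Foxa1/2 sites were few: of the 267 deleted-tumor Foxa1/2 peaks in members, 54 had no positive-tumor counterpart, 20.2% (15.8 to 25.4), against 32.9% of the whole deleted-tumor list.

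H3K4me3, the mark of promoters that also occurs at lower level at active enhancers, was present at a minority of members and mostly absent from deleted tumors. In positive tumors 1892 members overlapped an H3K4me3 island, 20.3% (19.5 to 21.1), and in deleted tumors 424, 4.55% (4.14 to 4.99). All autosomal islands, unweighted, overlapped one in 41.1% and 30.6%. Kept H3K4me1-marked islands of the same widths gave 45.1% and 37.5%. The members lay below them on 19 of 19 chromosomes in both tumor types.

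**Figure D4:**
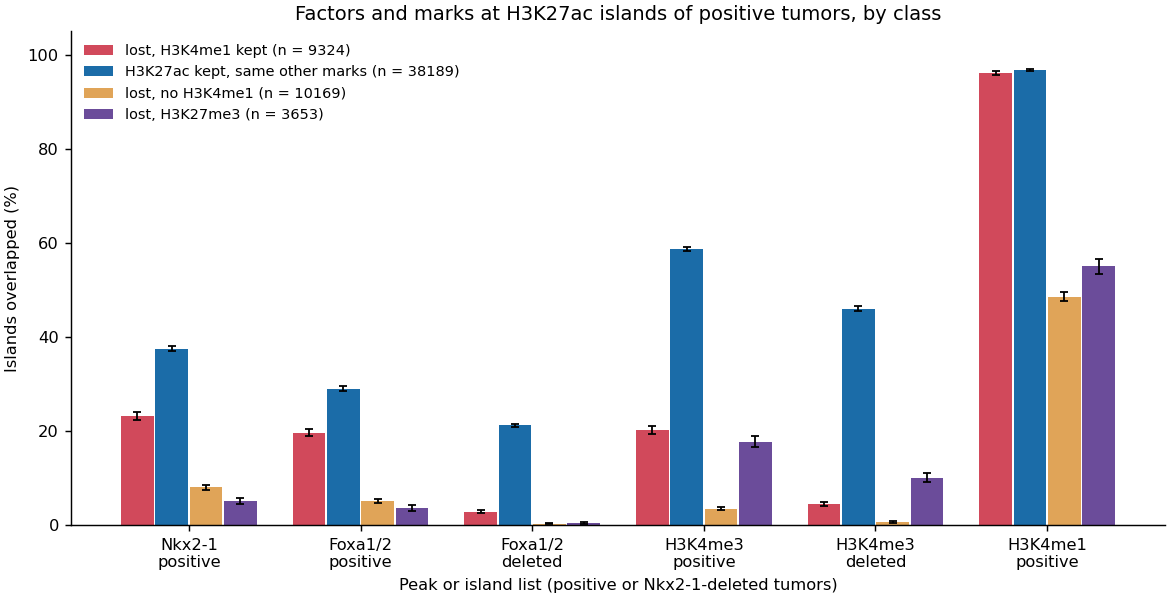
Share of islands (percent) that overlap a peak or island of each list, for lost H3K4me1-marked islands, kept H3K4me1-marked islands and the other classes of lost islands, with 95% Wilson intervals. Lost H3K4me1-marked islands show Nkx2-1 at 23.2%, against 8.05% and 5.12% in the other lost classes and 37.5% in kept H3K4me1-marked islands. H3K4me3 is at 20.3% of the lost H3K4me1-marked islands in positive and 4.55% in deleted tumors, against 58.8% and 46.1% of the kept ones. Shares are not weighted to width.

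Of the H3K4me3 islands of positive tumors that touched a member, 1364 of 1882 had no counterpart in deleted tumors, 72.5% (70.4 to 74.4). The share over all autosomal H3K4me3 islands was 31.8%, and over those touching kept H3K4me1-marked islands but no member 28.6% (28.0 to 29.1). H3K4me3 islands at members were shorter, with a median of 1200 bp against 2000 bp. Reads inside all H3K4me3 islands came to 28.9 M in positive and 19.6 M in deleted tumors, and the part of depth in this loss was not tested. Members with H3K4me3 in positive tumors carried Nkx2-1 in 44.5% of cases (42.2 to 46.7) and the others in 17.8% (16.9 to 18.6). Both values exceeded those of kept H3K4me1-marked islands of equal width and H3K4me3 state, which were 34.3% and 9.51%. Without weighting to width those islands gave 52.6% and 16.0%, so the order at H3K4me3 islands turned on the weighting. At the 1996 Nkx2-1 summits within members, H3K4me3 covered 36.3% (34.2 to 38.4) in positive and 3.96% (3.19 to 4.91) in deleted tumors. At Nkx2-1 summits in kept islands it covered 75.4% and 51.5%.

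The positive-tumor H3K4me1 list, which the rule did not use, covered part of 8966 members, 96.2% (95.8 to 96.5). This was close to the unweighted 96.8% (96.7 to 97.0) of kept H3K4me1-marked islands and above the 84.2% of all autosomal islands. Every member had to overlap deleted-tumor H3K4me1, which 76.0% of all autosomal islands did, so the choice of members may raise their value over the whole list. Weighted to the members' widths, kept H3K4me1-marked islands gave 93.2%, and weighted to the members' read counts 90.5%, both below the members. Lost islands with neither mark, chosen for lacking H3K4me1 in deleted tumors, had it in 48.6% (47.6 to 49.6). The label that H3K4me1 remained thus held for all but 358 members (3.84%), in which H3K4me1 was called in deleted tumors only. Of those 358 islands, 3 had an Nkx2-1 peak. H3K27me3 in positive tumors was at 51 members (0.547%), as rarely as at kept H3K4me1-marked islands (0.537%), which were likewise chosen for no H3K27me3 in deleted tumors.

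H3K4me1 extended over less of the island in deleted tumors where Nkx2-1 had been bound. The median share of a member's length under H3K4me1 was 92.9% in positive and 70.6% in deleted tumors for the 2161 members with Nkx2-1, and 100% in both for the 7163 without. Covered length was smaller in deleted tumors in 65.2% of members with Nkx2-1 and in 29.9% of those without. Kept H3K4me1-marked islands had the same order with smaller shares, 33.9% with Nkx2-1 and 21.9% without, and their median cover with Nkx2-1 was 92.3% in positive and 93.3% in deleted tumors. Members with Nkx2-1 were wider, and the part of width in this difference was not tested. Reads inside all H3K4me1 islands came to 35.8 M in positive and 29.8 M in deleted tumors. The part of depth in the smaller cover was not tested either. At the Nkx2-1 summit itself H3K4me1 was called in 99.7% of cases in positive and 95.7% in deleted tumors. The deleted-tumor value is one that the rule raises, since a member must have H3K4me1 somewhere in that list.

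In deleted tumors 8585 H3K4me1 islands touched members, 7854 of them 1 member, 612 of them 2 and 119 of them 3 or more. Some of these islands also held remaining acetylation: 26.8% of members (25.9 to 27.7) shared their H3K4me1 island with a deleted-tumor H3K27ac island. The most members in 1 H3K4me1 island were 6, first on chromosome 17 (32368201 to 32421000). Of these 6, 3 had Nkx2-1, and H3K27ac covered 26.5% of the H3K4me1 island in positive tumors and 6.82% in deleted ones. An island on chromosome 9 (59300201 to 59336000) also held 6, with cover going from 69.3% to 17.3%. On chromosome 10 (66554601 to 66610600) an island held 5, 4 of them with Nkx2-1, and 56.1% of it was still under H3K27ac, against 81.1% in positive tumors.

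Factor binding at the members varied with their distance to the nearest H3K27ac island of deleted tumors. The median distance was 6000 bp (quartiles 2000 and 17000). The 1425 members within 1000 bp of remaining acetylation (15.3%) had Nkx2-1 in 7.09% (5.87 to 8.54). Those at 1000 to 5000 bp had it in 15.9% and those at 5000 to 20000 bp in 24.8%. The 2045 members over 20000 bp away had it in 42.2% (40.1 to 44.4), so members apart from any remaining acetylation were bound most often. Positive-tumor Foxa1/2 followed the same order, with 5.89%, 13.1%, 20.2% and 37.8%. H3K4me3 in positive tumors did likewise, with 12.8%, 14.6%, 20.4% and 33.3%. Median width rose from 1400 to 1800 bp and median read count from 95 to 131 between the nearest and the farthest members.

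Distance to the nearest other H3K27ac island of the positive tumors gave no steady rise. Members within 1000 bp of another island had Nkx2-1 in 20.3% (19.04 to 21.7), those at 1000 to 5000 bp in 18.96% (17.5 to 20.5), those at 5000 to 20000 bp in 27.1% (25.2 to 29.04) and those over 20000 bp away in 38.9% (35.8 to 42.1). The shares were higher beyond 5000 bp, and the nearer classes did not differ beyond counting error. Kept H3K4me1-marked islands weighted to the members' widths gave 16.3%, 18.03%, 24.4% and 29.1%. Of the members, 4173 (44.8%) stood in 1703 runs of 2 or more successive islands that all met the rule. The other 5151 stood alone. Members were 13.2% of all autosomal islands, and runs of other classes are not given, so grouping beyond that share was not tested. The longest runs held 9 members each, on chromosome 14 (19489801 to 19628800), where 1 had Nkx2-1, and on chromosome 6 (32724201 to 32887200), where 4 had it.

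Members were spread over all 19 autosomes, from 10.5% of the islands on chromosome 7 to 15.3% on chromosome 14. The share with Nkx2-1 ranged from 19.7% on chromosome 8 to 26.99% on chromosome 1, and that with positive-tumor Foxa1/2 from 14.0% on chromosome 17 to 24.2% on chromosome 15.

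The strongest members show the pattern at single regions, given by 1-based mm9 coordinates. All 10 members with the most H3K27ac reads, 1867 to 2701, had Nkx2-1 and Foxa1/2 peaks in positive tumors. In deleted tumors 1 of them had a Foxa1/2 peak. H3K4me3 was at 8 of them in positive tumors and at 0 after deletion. Factors and H3K4me3 in positive tumors were also common at kept H3K4me1-marked islands in this range of reads, with Nkx2-1 at 80.3%, Foxa1/2 at 67.8% and H3K4me3 at 92.6%. Those islands had Foxa1/2 in 46.8% and H3K4me3 in 75.7% in deleted tumors. The member with the highest count lay on chromosome 9 (23493201 to 23509800). It held 2701 reads over 16600 bp, 2 Nkx2-1 peaks and 3 Foxa1/2 peaks, and its cover by H3K4me1 was 77.1% in positive and 28.9% in deleted tumors. The nearest deleted-tumor H3K27ac island was 16600 bp away.

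A further pair of these members stood near each other on chromosome 9, at 29132001 to 29146600 and 29094001 to 29105400. The former, with 2690 reads, was the member of the 10 with Foxa1/2 in deleted tumors. It held 4 positive-tumor Foxa1/2 peaks, the highest of score 284, and 1 deleted-tumor peak, of score 91. In the latter, with 1953 reads, a positive-tumor Foxa1/2 peak of score 2530 had no counterpart. On chromosome 1, an island at 188871801 to 188886600 held 2675 reads, 3 Nkx2-1 peaks and a Foxa1/2 peak of score 1939 that was not called in deleted tumors. Another on chromosome 1, at 42944801 to 42954600, differed from the rest in that H3K4me1 covered 95.9% of it in deleted tumors, against 100% in positive tumors. H3K4me3 covered 67.3% of that island in positive tumors and was not called in deleted tumors.

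Of the others, chromosome 5 held 2. The island at 54826601 to 54839600 had 4 Nkx2-1 peaks and lay 173000 bp from remaining acetylation, and that at 113204001 to 113213400 had the highest density of the 10, with 221 reads per kb, and no H3K4me3. An island on chromosome 19 (57989201 to 58003000) held 2150 reads and an Nkx2-1 peak of score 477. On chromosome 15 (32513001 to 32526600) H3K4me1 cover was the lowest of the 10 in deleted tumors, 13.2% against 67.6% in positive tumors. The widest member, on chromosome 18, spanned 17200 bp with 2579 reads. The third widest, after it and the island with the most reads, lay on chromosome 6 (53864201 to 53879800) and had 3 Nkx2-1 peaks and 1798 reads.

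Strong Nkx2-1 peaks were not limited to strong islands. The highest summed Nkx2-1 scores were 3190 on chromosome 7 (144585601 to 144599600, 1622 H3K27ac reads) and 3187 on chromosome 17 (83412401 to 83422000, 1385 reads). The third, a peak of score 3100 on chromosome 14 (20579001 to 20580000), lay in an island of 78 reads, 40% of which was under H3K27me3 in positive tumors. The fourth, also 3100, on chromosome 5 (42012401 to 42013000), lay in an island of 49 reads, above only 1.33% of the list. The fifth, of score 2970, lay on chromosome 2 (148589201 to 148594800) in an island of 881 reads. All 5 had Foxa1/2 in positive tumors, with scores from 60 to 1588, and none had a Foxa1/2 peak in deleted tumors.

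Foxa1/2 stayed at high score in a few members without H3K27ac. The highest deleted-tumor Foxa1/2 score, 1887, was on chromosome 1 (182645801 to 182647400), where the positive-tumor peak scored 1699. Most of that peak lay outside the member, part of it over an interval that was acetylated in both tumor types, with the nearest deleted-tumor H3K27ac island 400 bp from the member. On chromosome 10 (58744201 to 58746800) the scores were 954 in deleted and 1426 in positive tumors, also 400 bp from remaining acetylation. Neighbouring members on chromosome 10, at 86304001 to 86308200 and 86308801 to 86312800, shared 1 deleted-tumor peak of score 824. None of these 4 members had Nkx2-1. The fifth, on chromosome 2 (75129201 to 75132400), had an Nkx2-1 peak of score 888 and Foxa1/2 peaks of score 3100 in positive and 752 in deleted tumors. Its nearest remaining acetylation was 290400 bp away, so there Foxa1/2 and H3K4me1 (87.5% cover in both tumor types) were present without H3K27ac in the surroundings. Scores of different lists are given side by side and are not on a common scale.

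The members under the H3K4me3 islands with the most reads were weak islands within broad H3K4me1 islands. On chromosome 2 (116957801 to 116959200) a member of 99 reads lay under a positive-tumor H3K4me3 island of 7421 reads that extended past it on both sides. On chromosome 11, members at 31785201 to 31786600 and 110938401 to 110939600 touched H3K4me3 islands of 7333 and 7324 reads. Each of these H3K4me3 islands overlapped an H3K4me3 island of deleted tumors elsewhere along its length, so the mark was missing over the member and not over the whole island. All 3 were inside H3K4me1 islands that also held remaining acetylation, at 2200, 0 and 200 bp from the member. None of the 3 had a Foxa1/2 peak.

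**Figure D5:**
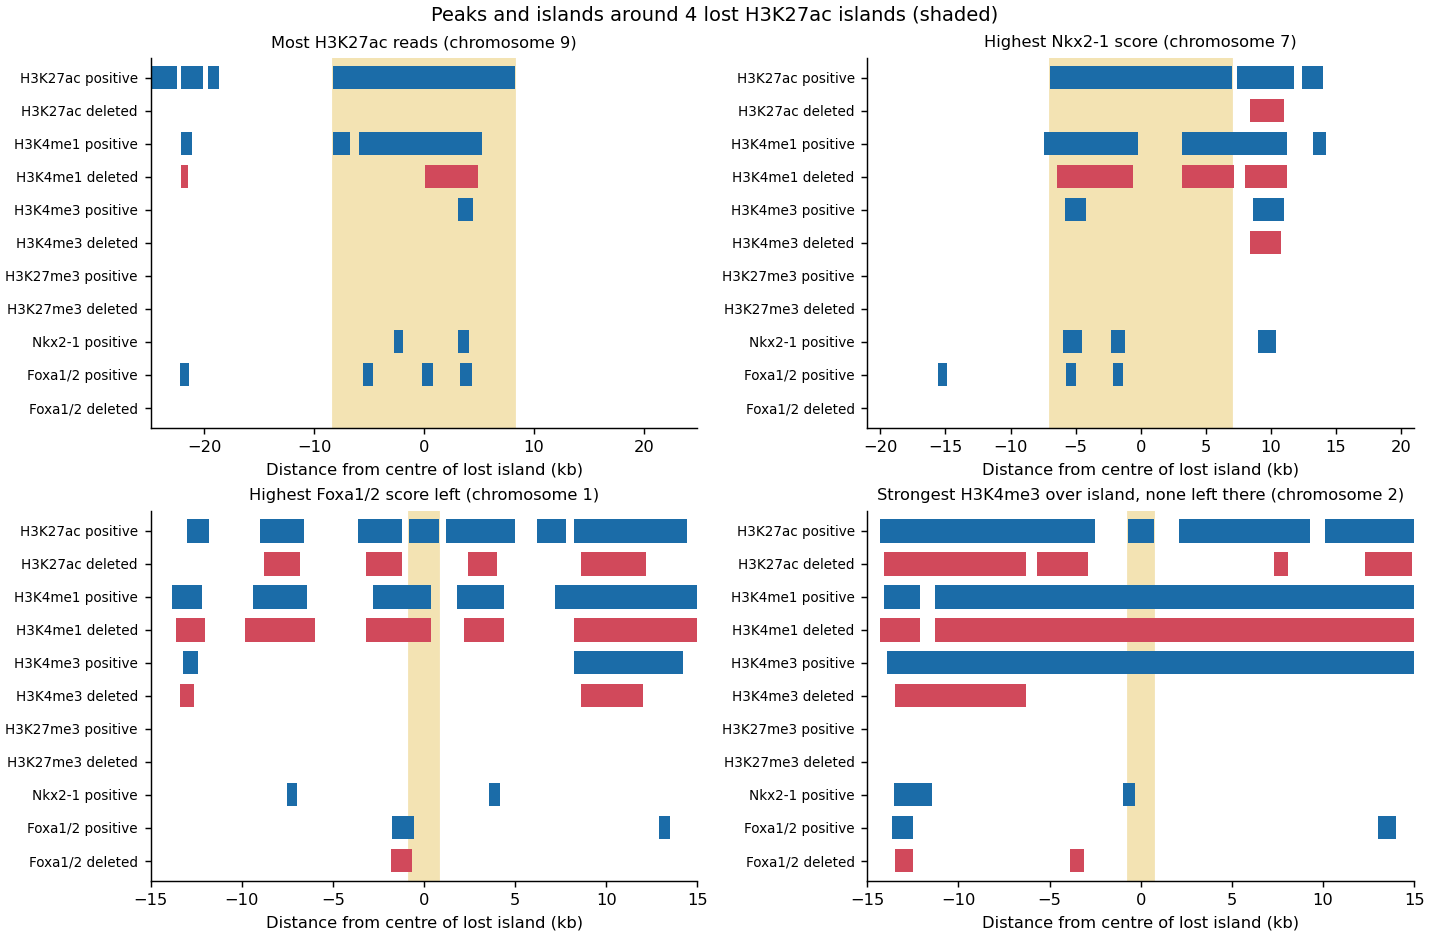
Maps of 4 lost H3K4me1-marked islands (x axis, kb from the island centre; shading, the island) with the peaks and islands of each list, positive tumors in blue and deleted tumors in red. They are the members with the most H3K27ac reads (chromosome 9), the highest summed Nkx2-1 score (chromosome 7) and the highest deleted-tumor Foxa1/2 score (chromosome 1). The last, on chromosome 2, has the H3K4me3 island with the most reads that was not called over the member in deleted tumors. H3K4me1 is drawn in both colours under each shaded island.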

How the data were processed

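Bowtie, MACS 1.4.2, SICER 1.1 and build mm9 are named, without a role, in the submitters' processing notes. Each deposited transcription factor peak has the authors' score and a summit, and names of these lists carry a p of 1e-06. Each deposited histone island has a read count from the authors, not scaled for depth. Names of the island lists carry windows of 200 bp and an FDR of 0.01, with gaps of 200 bp for H3K27ac and H3K4me3 and of 600 bp for the other marks. Scores and counts were used within a list only.

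Samples were grouped by titles. The 22 files form 11 groups, and the files of a group were byte-identical and named as merged, so each group was used as 1 list. The 9 inputs were not used here. Overlap needed 1 bp, and island ends were read as the last base. Comparison classes were weighted to the distribution of the members' widths or read counts. Shares carry 95% Wilson intervals. Python 3.11.15, numpy 2.4.6, pandas 2.3.3, scipy 1.17.1 and matplotlib 3.10.9 were used. The overlap functions were tested on simulated data and classified all 9000 simulated intervals correctly.

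The members, lists and named regions were chosen with earlier results of these data known. Named were the 10 members with the most reads, the 5 with the highest summed Nkx2-1 score, the 5 with the highest deleted-tumor Foxa1/2 score and the 3 widest. The 3 H3K4me1 islands with most members and the 3 members without H3K4me3 in deleted tumors under the positive-tumor H3K4me3 islands with the most reads were added. Alternatives varied the overlap, the distance to remaining acetylation, the strength of each list and the chromosomes. The comparison with kept H3K4me1-marked islands, also by read count and under each alternative choice of members, was added after the data had been seen. No genome or annotation of mm9 was used here, so no sequence, motif or gene was assigned.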

Additional observations from a re-analysis of the deposited data

How the results depend on the processing

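Of 61 alternative values for the 7 shares, 20 stayed within the 95% interval of the value reported above and 41 did not. Where no deleted-tumor H3K27ac was allowed within 1000 bp, members had Nkx2-1 in 26.1%, positive-tumor Foxa1/2 in 22.2%, positive-tumor H3K4me3 in 21.6% and positive-tumor H3K4me1 in 97.0%. Within 5000 bp these were 31.8%, 27.3%, 25.7% and 97.9%, with deleted-tumor Foxa1/2 at 3.83%, deleted-tumor H3K4me3 at 6.49% and members at 41.0% of lost islands. Where deleted-tumor H3K4me1 had to cover at least 50% of the island, members were 35.3% of lost islands, with Nkx2-1 at 19.6%, positive-tumor Foxa1/2 at 17.0% and positive-tumor H3K4me1 at 96.8%.

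In the upper 50% of the positive H3K27ac list by read count, members were 60.1% of lost islands, with Nkx2-1 at 59.4%, Foxa1/2 at 47.3% and 4.54% in positive and deleted tumors, H3K4me3 at 34.99% and 3.84%, and positive-tumor H3K4me1 at 99.8%. With the least dense positive islands left out until both lists covered equal length, the same values were 50.7%, 50.7%, 39.8%, 3.95%, 36.7%, 7.80% and 98.7%.

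Stricter overlap lowered the shares, as fewer peaks or islands can then count. With the summit inside the member, Nkx2-1 was at 19.8% and Foxa1/2 at 16.5% and 2.36%. In the upper 50% of each peak list by score they were 12.8%, 10.0% and 1.04%. With a mark over at least 50% of the member, H3K4me3 was at 11.6% and 2.39% and positive-tumor H3K4me1 at 92.2%. In the upper 50% of each mark list by read count these were 3.04%, 0.375% and 67.7%. Adding chromosome X, with 176 further islands, moved no share outside its interval. Lifting the width limit could change no value, as 0 of 1275 islands at or over the limit were lost. Its values among the 20 were therefore fixed in advance. Under every alternative choice of members, their shares of Nkx2-1 and positive-tumor Foxa1/2 stayed above those of width-weighted kept H3K4me1-marked islands. Their shares of deleted-tumor Foxa1/2 and of H3K4me3 stayed below. The kept islands were filtered likewise only for the read-count and equal-length choices. They were otherwise the same autosomal islands as before, and without the width limit the members were also the same.

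Leaving out a replicate was not run, as the 2 files of each group hold the same pooled list. No paired analysis was possible because each group has 1 pooled list here and no test was made. The lists give no signal below the authors' calling threshold, so an island under that threshold counts as lost.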

Other observations

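The opposite class was smaller and differed in its factors. Of 59876 autosomal deleted-tumor H3K27ac islands under the width limit, 6530 (10.9%) had none in positive tumors, and 2261 of these (34.6%) had H3K4me1 and no H3K27me3 in positive tumors. In this class Nkx2-1 was at 3.49% (2.81 to 4.33) and Foxa1/2 at 8.31% (7.25 to 9.52) in positive and 17.8% (16.3 to 19.5) in deleted tumors. H3K4me3 was at 13.4% in positive and 13.0% in deleted tumors. This class was chosen for H3K27ac in deleted tumors only, so its values are not a like comparison with the lost islands. The deleted-tumor lists held fewer reads, 31.2 M against 45.7 M for H3K27ac and 19.6 M against 28.9 M for H3K4me3. The part of depth in the size and marks of this class was not tested. Shares over all deleted-tumor islands are not given here.

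On chromosome X, outside the rule, 176 of 1560 islands (11.3%) met the rest of it. Nkx2-1 was at 29.0% (22.8 to 36.1) and positive-tumor Foxa1/2 at 31.2% (24.9 to 38.4) of them. Along the autosomes, 2107 stretches of 1 Mb held islands, with a median of 3 members. The most, 24 members each, lay on chromosome 13 at 9000001 to 10000000 and at 44000001 to 45000000. These stretches held 73 and 75 islands, so members were 32.9% and 32% of them. On chromosome 17, the stretch at 30000001 to 31000000 had a higher share, with 21 members among 50 islands (42%).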
